A study of Arabidopsis thaliana with 2 samples.

Results

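The SHORT-ROOT, SCARECROW and JACKDAW pathway of ground tissue formation was examined through 9 genes chosen by gene identifier: SHR, SCR, JKD, MGP, NUC, BIB, SCL3, RBR1 and CYCD6;1. Of these, 8 were found among the 20612 loci of the expression table, and NUC was not analysed here. Poly(A) RNA came from Arabidopsis thaliana embryos at the early globular stage, when the embryo is a round cluster with few cells. One library was made from 30 pooled wild-type embryos of the Col-0 strain and one from 30 pooled dcl1-5 embryos, all dissected by hand from plants grown with 16 hours of light and 8 hours of dark. The dcl1-5 allele lies in DICER-LIKE1 (DCL1), whose product cuts microRNAs (miRNAs) from their precursors. Each genotype has a single library, so the differences have no replicate check and the genotypes could not be tested.

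Ground tissue is the layer between the epidermis and the vascular tissue, and in the root it forms cortex and endodermis. SHR is a GRAS family transcription factor that is made in the vascular precursors and moves outward by one cell layer. There it meets SCR, a related GRAS factor that holds it in the nucleus, and both activate the cell-cycle gene CYCD6;1 for the division that separates cortex from endodermis. Zinc finger proteins of the INDETERMINATE DOMAIN (IDD) family, JKD and BIB (BALDIBIS) among them, bind SHR and SCR and limit SHR movement. JKD is known to be needed for SCR expression. MGP and NUC are further IDD factors and, with the GRAS gene SCL3, are known targets of SHR. RBR1, the retinoblastoma homologue, restrains SCR until cyclin D kinases phosphorylate it. In the root, SHR and SCR also activate MIR165A and MIR166B, whose miRNAs limit the HD-ZIP III factors.

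Values are RPM, the reads of a gene per 1000000 genome-matching reads of its library. The wild-type library held 5611643 such reads and the dcl1-5 library 4513588, so 1 read stood for 0.178 RPM and 0.222 RPM. Brackets give exact 95% Poisson intervals for a level and exact conditional intervals for a ratio. Both cover counting error only, because amplified RNA does not give independent molecules. The log2 ratio is dcl1-5 over wild type on the log2(RPM + 1) scale, and a gene was called when it differed at least 2-fold and its mean over both libraries reached 5 RPM. The median log2 ratio of the 10240 genes that reached this mean was 0.63, not 0, so the distance from 0.63 is given for the genes of the set. The targeted gene, DCL1, had 4.63 RPM in the wild-type library (26 reads) and 0.665 RPM in the dcl1-5 library (3 reads), which is 6.97-fold lower [2.14 to 36.0]. The table counts the gene as a whole, and a locus on the same strand overlaps it in the reference annotation.

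The genes of the pathway did not move together. JKD was 36.7-fold lower in the dcl1-5 library and SCR 3.16-fold lower, whereas SCL3 was 3.32-fold higher and SHR and RBR1 were higher by less than 2-fold. Of the 5 genes of the set that reached a mean of 5 RPM, 1 was called higher and 2 were called lower, with 2 neither. Among all 10240 genes compared, 33.8% were called higher and 4.58% lower. After TMM scaling, under which the median log2 ratio of all genes was 0.00, the set again had 1 higher and 2 lower. Of all genes, 14.7% were then higher and 14.2% lower. With 5 genes these counts are a description only. MGP, BIB and CYCD6;1 lay under the filter and are given by their reads. Their distances from the median set them against genes that passed the filter, so they are a description only.

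**Figure D1:**
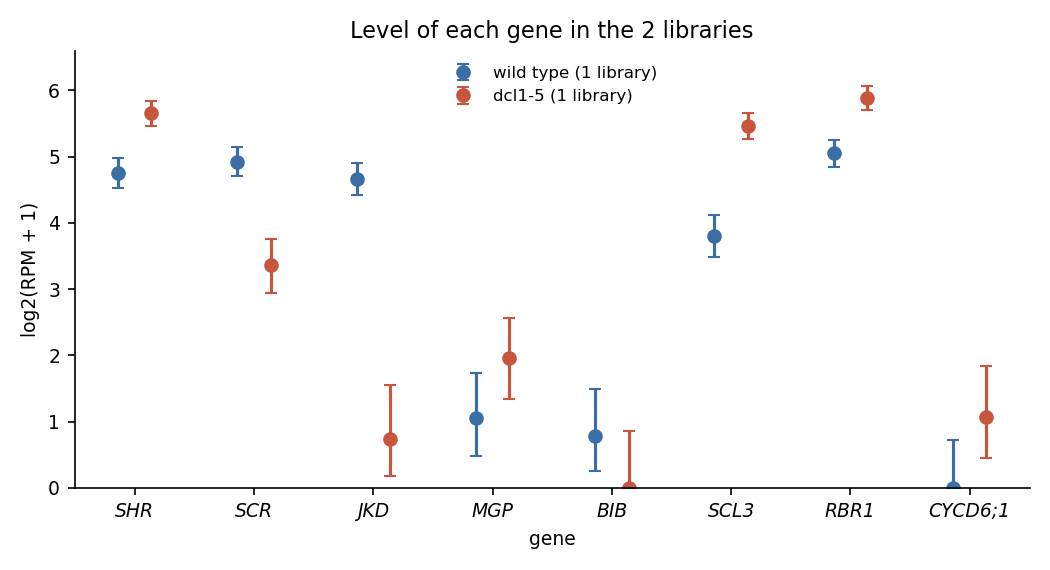
Level of the 8 analysed genes as log2(RPM + 1), with 1 point per library (blue wild type, red dcl1-5) and bars for exact 95% Poisson intervals. JKD goes from 24.4 to 0.665 RPM and SCR from 29.4 to 9.31 RPM, while the intervals of SHR, SCL3 and RBR1 lie higher in dcl1-5.

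SHR (AT4G37650, chromosome 4), the mobile factor, had 146 reads in wild type, or 26.0 RPM [22.0 to 30.6]. It had 224 reads in dcl1-5, or 49.6 RPM [43.3 to 56.6]. The dcl1-5 value was therefore the higher one, and the intervals do not overlap. The ratio was 1.91 [1.54 to 2.37] and the log2 ratio 0.91, which is 0.28 above the median of all genes and short of the 2-fold rule. In order of ratio SHR stood at rank 3883 from the highest of 10240 genes.

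SCR (AT3G54220, chromosome 3), the partner of SHR, had 165 reads in wild type, or 29.4 RPM [25.1 to 34.2], and 42 reads in dcl1-5, or 9.31 RPM [6.71 to 12.6]. It was high in wild type and low in dcl1-5, with no overlap of the intervals. SCR was 3.16-fold lower in dcl1-5 [2.24 to 4.55]. Its log2 ratio of -1.56 was at rank 169 from the lowest, and its distance from the median of all genes was -2.19. In bulk embryos, fewer cells that express a gene and less RNA per cell cannot be told apart.

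JKD (AT5G03150, chromosome 5), the IDD partner of SHR and SCR, had 137 reads in wild type, or 24.4 RPM [20.5 to 28.9]. In dcl1-5 it had 3 reads, or 0.665 RPM [0.137 to 1.94]. The gene passed the filter through its wild-type value, and its dcl1-5 value equals the floor of 3 reads. JKD was 36.7-fold lower [12.3 to 180]. Its log2 ratio of -3.93 was at rank 12 from the lowest of 10240 genes, and its distance from the median of all genes was -4.56. The plot of all genes shows JKD far below the main cloud and SCR at its lower edge.

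**Figure D2:**
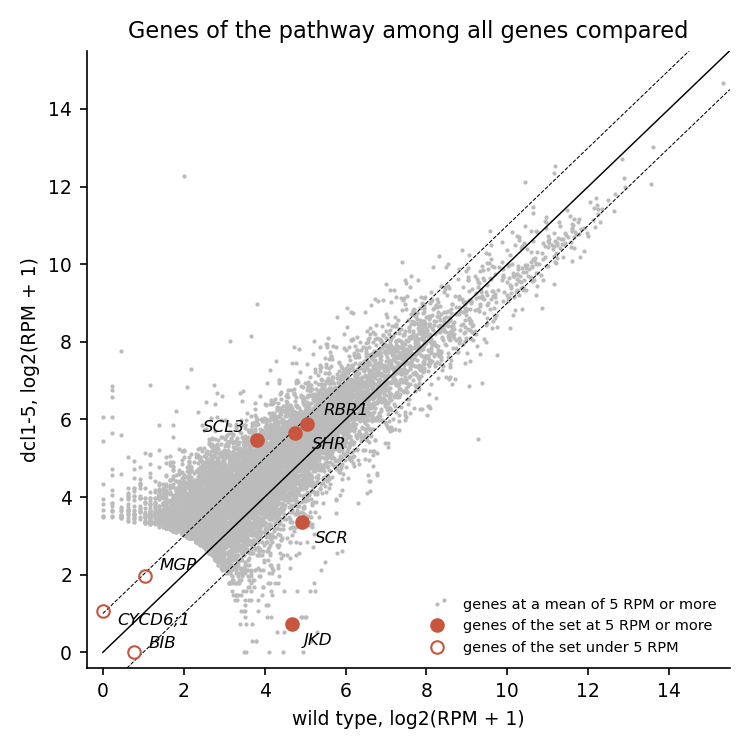
Levels in wild type (x axis) and dcl1-5 (y axis) as log2(RPM + 1), with grey points for the 10240 genes at a mean of 5 RPM or more, filled red points for the 5 genes of the set that reach it and open ones for the 3 under it. The solid line marks equality and the dashed lines 2-fold differences. JKD and SCR lie below the lower dashed line and SCL3 above the upper one.

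The other analysed IDD genes of the set had 13 reads or fewer in either library. MGP (AT1G03840, chromosome 1), a SHR target that also binds JKD, had 6 reads in wild type, or 1.07 RPM, and 13 in dcl1-5, or 2.88 RPM. Its ratio of 2.69 had an interval of 0.955 to 8.64, which includes equality. The log2 ratio of MGP was 0.91, which is 0.28 above the median of all genes, and was 1.35 and 0.38 with pseudocounts of 0.1 and 5 RPM. BIB (AT3G45260, chromosome 3), which acts together with JKD, had 4 wild-type reads and 0 dcl1-5 reads, where the floor of 3 reads is 0.665 RPM and the exact upper limit of a count of 0 is 0.817 RPM. No difference of BIB was detectable at this depth, since the interval of its dcl1-5 over wild-type ratio runs from 0 to 1.88. The log2 ratio of BIB was -0.78, and its distance from the median of all genes was -1.40. With pseudocounts of 0.1 and 5 RPM the log2 ratio of BIB was -3.02 and -0.19, so its size depends on the pseudocount.

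SCL3 (AT1G50420, chromosome 1), a GRAS protein downstream of SHR and SCR that acts against DELLA repressors in gibberellin signalling, had 73 reads in wild type, or 13.0 RPM [10.2 to 16.4]. It had 195 reads in dcl1-5, or 43.2 RPM [37.4 to 49.7]. The dcl1-5 library was thus the high one, and the intervals were apart. SCL3 was 3.32-fold higher [2.53 to 4.41], with a log2 ratio of 1.66 that was 1.03 above the median of all genes and at rank 1414 from the highest.

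The cell-cycle genes were 1 abundant and 1 scarce. RBR1 (AT3G12280, chromosome 3) had 181 reads in wild type, or 32.3 RPM [27.7 to 37.3], and 263 reads in dcl1-5, or 58.3 RPM [51.4 to 65.8]. It was higher in dcl1-5 by a ratio of 1.81 [1.49 to 2.20]. Its log2 ratio of 0.83 lay only 0.21 above the median of all genes. CYCD6;1 (AT4G03270, chromosome 4), the D-type cyclin of the formative ground tissue division, had 0 reads in wild type, where the floor of 3 reads is 0.535 RPM and the exact upper limit 0.657 RPM. In dcl1-5 it had 5 reads, or 1.11 RPM [0.360 to 2.59]. The exact lower bound of the ratio is 1.14 with the authors' scaling, under which the median of all genes is above 0. The log2 ratio of CYCD6;1 was 1.08, which is 0.45 above that median, and 0.76 with TMM scaling. With pseudocounts of 0.1 and 5 RPM it was 3.59 and 0.29. Set against the floor of 3 reads, the dcl1-5 value itself is 2.07 times that floor, without the counting error of its 5 reads. Loci on the opposite strand overlap RBR1 and CYCD6;1 in the reference annotation, and the authors' counting used strand.

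**Figure D3:**
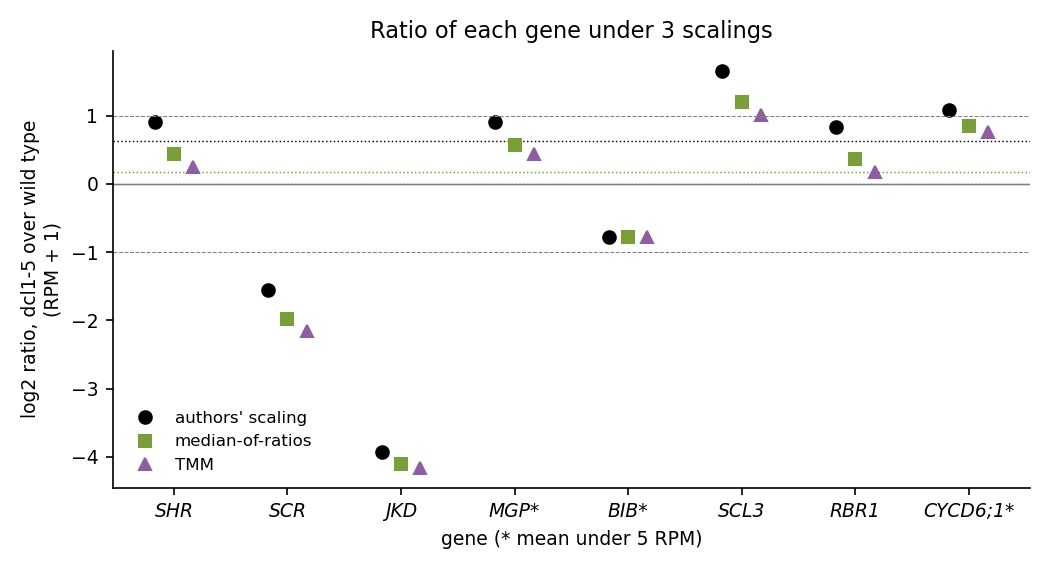
Log2 ratio of dcl1-5 over wild type on the log2(RPM + 1) scale for the 8 genes, under the authors' scaling (circles), median-of-ratios (squares) and TMM (triangles). Dotted lines mark the median of all genes under each scaling and dashed lines 2-fold differences. JKD and SCR stay below -1 and SCL3 stays above 1 under all 3, while SHR moves between 0.91 and 0.25.

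The split between low JKD and SCR and higher SHR did not rest on how the libraries were scaled to each other. Within 1 library, the reads of one gene over another need no scaling, and gene length cancels when the 2 libraries are compared. SCR had 1.13 reads per SHR read in wild type and 0.188 in dcl1-5, a quotient 6.03-fold lower [3.99 to 9.19]. JKD had 0.938 reads per SHR read in wild type and 0.0134 in dcl1-5, which is 70.1-fold lower [22.6 to 348]. JKD was also lower relative to SCR, from 0.830 to 0.0714 reads per SCR read, 11.6-fold [3.57 to 59.6]. SCL3, a known target of SHR and SCR, moved the other way from SCR, from 0.442 to 4.64 reads per SCR read, 10.5-fold higher [6.67 to 16.6]. Relative to SHR, SCL3 went from 0.5 to 0.871 reads per SHR read, only 1.74-fold higher [1.22 to 2.49]. RBR1 had 1.24 reads per SHR read in wild type and 1.17 in dcl1-5, and the interval of that ratio, 0.707 to 1.27, includes equality.

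Levels of different genes were compared per kilobase of annotated exon, since longer transcripts can yield more reads. Whether reads grew with exon length in this RNA, amplified in 2 rounds, was not tested, so the order of genes depends on that assumption. In wild type SHR led with 12.0 RPM per kb [10.1 to 14.1], followed by JKD with 10.7 [8.95 to 12.6], SCR with 10.6 [9.03 to 12.3] and RBR1 with 8.38 [7.20 to 9.69] RPM per kb. Neighbours among these 4 do not differ beyond their counting intervals. SCL3 came next with 5.50 RPM per kb [4.31 to 6.91], apart from RBR1, and then MGP with 0.556, BIB with 0.340 and CYCD6;1 with 0 RPM per kb, each overlapping its neighbour. In wild type 80.2% of genes with an annotated length had fewer RPM per kb than SHR, 78.8% fewer than JKD and 78.7% fewer than SCR.

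In dcl1-5 the order was another. SHR led again with 22.8 RPM per kb [19.9 to 26.0], followed by SCL3 with 18.3 [15.8 to 21.0] and RBR1 with 15.1 [13.4 to 17.1], each overlapping its neighbour. SCR followed well below RBR1 with 3.35 RPM per kb [2.41 to 4.53]. MGP had 1.50, CYCD6;1 0.688, JKD 0.290 and BIB 0 RPM per kb, again with overlap between neighbours. JKD thus went from rank 2 of the 8 genes to rank 7. Only 18.8% of genes had fewer RPM per kb than JKD in dcl1-5.

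The IDD family showed which of its genes held its reads. In wild type JKD gave 137 of the family's 367 reads, or 37.3% (exact Clopper-Pearson interval 32.4 to 42.5%), over 14 analysed genes of 16. In dcl1-5 JKD gave 3 of 455 reads, or 0.659% [0.136 to 1.91%]. IDD6 (AT1G14580) moved the opposite way, from 9 reads or 2.45% [1.13 to 4.60%] to 163 reads or 35.8% [31.4 to 40.4%]. In RPM it went from 1.60 to 36.1, 22.5-fold higher [11.6 to 50.1]. The family as a whole had 65.4 RPM in wild type and 100.8 RPM in dcl1-5, beside a median log2 ratio of 0.63 for all genes compared. IDD11 (AT3G13810) was 4.12-fold higher in dcl1-5 [2.44 to 7.29]. IDD1 (AT5G66730), also called ENHYDROUS, had 20.9 and 27.3 RPM, and its log2 ratio of 0.37 was negative (-0.27) with TMM scaling. Of the 12 IDD genes outside the set, 3 reached a mean of 5 RPM, of which 2 were called higher and 0 lower. Among all genes compared, 33.8% were called higher and 4.58% lower. IDD6 and IDD11 passed that mean through their dcl1-5 values.

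**Figure D4:**
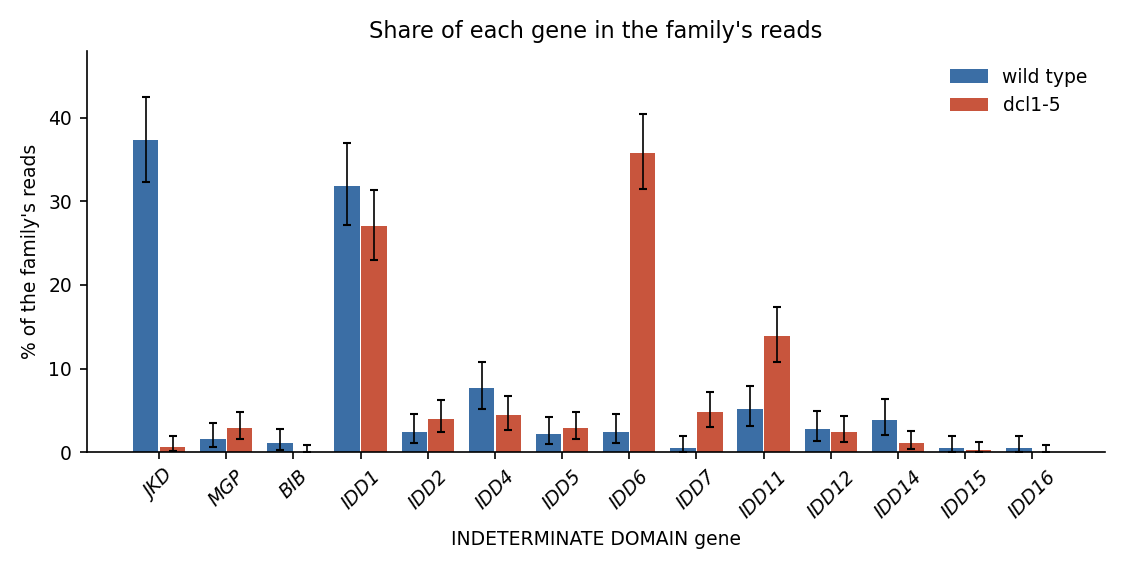
Share of each of 14 IDD genes in the reads of the family, in percent, for wild type (blue, 367 reads) and dcl1-5 (red, 455 reads), with exact 95% binomial intervals. JKD goes from 37.3% to 0.659% of the reads and IDD6 goes from 2.45% to 35.8%. Shares follow reads, so longer transcripts can count for more.

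Among other GRAS genes, the family of SHR, SCR and SCL3, every call was for a higher value in dcl1-5. Of 29 listed, 18 reached a mean of 5 RPM, 12 were called higher and 0 lower, or 5 and 0 with TMM scaling. Their median log2 ratio was 1.45, against 0.63 for all genes. Among all genes compared, 33.8% were called higher and 4.58% lower, or 14.7% and 14.2% with TMM scaling. Of the 12 called, RGL1 and SCL5 were under 5 RPM in wild type and passed the filter through dcl1-5. RGL1 (AT1G66350), a DELLA repressor of gibberellin responses, was 6.55-fold higher [3.74 to 12.2]. HAM2 (AT3G60630), a meristem factor and miR171 target, went from 9.09 to 36.8 RPM, 4.05-fold [2.94 to 5.65]. SCL5 (AT1G50600) was 4.71-fold higher [2.57 to 9.19] and SCL11 (AT5G59450) 3.48-fold [2.41 to 5.13]. SCL23 (AT5G41920), the closest relative of SCR, lay under the filter with 5 wild-type and 34 dcl1-5 reads, 8.45-fold higher [3.29 to 27.7]. SCL33 (AT2G29060), also under the filter, went the other way with 15 and 3 reads, 4.02-fold lower [1.14 to 21.7]. SCL23 and SCL33 were named after their values were seen. Of the 26 genes of the list analysed, 22 had more RPM in dcl1-5 and 4 in wild type. Among all genes, 68.6% had more RPM in dcl1-5. SCR was thus called lower, while the 12 called genes of this list were higher.

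Genes known to act downstream of SHR and SCR, or in the endodermis, were divided. Of 16 listed, 10 could be analysed and 4 reached a mean of 5 RPM, with a median log2 ratio of -0.80. Among all genes compared, 33.8% were called higher and 4.58% lower, or 14.7% and 14.2% with TMM scaling. Of the 4, 1 was called higher and 2 lower, or 0 and 2 with TMM scaling. Both lower genes passed the filter through wild type. SNE (AT5G48170), an F-box gene of gibberellin signalling and SHR target, had 29.4 RPM in the wild-type library (165 reads) and 0.886 RPM in the dcl1-5 library (4 reads). It was 33.2-fold lower [12.7 to 123]. WOX5 (AT3G11260), a homeobox gene of the root organizer that depends on SCR, had 65 and 9 reads and was 5.81-fold lower [2.88 to 13.3]. SGN3 (AT4G20140), also annotated as GSO1, is a receptor kinase that oversees Casparian strip closure in the root. It was 2.19-fold higher [1.78 to 2.72]. Its log2 ratio of 1.10 was 0.45, and no longer called, with TMM scaling. The tissue that gave its reads was not tested. PER64 (AT5G42180), a Casparian strip peroxidase, had 75.7 and 105.0 RPM, a log2 ratio of 0.47 that was -0.20 with TMM scaling. Of the Casparian strip membrane proteins, CASP1 had 1 and 0 reads and CASP4 had 2 and 2 reads. The mature endodermal proteins CASP1 and CASP4 were thus under the floor of 3 reads in both libraries. JKD and SNE thus had similar values, 24.4 and 29.4 RPM in wild type and 0.665 and 0.886 RPM in dcl1-5. MIR165A and MIR166B were not analysed here.

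Among upstream and partner genes, 9 of 11 reached a mean of 5 RPM, with a median log2 ratio of -0.14. Of these, 2 were called higher and 2 lower, or 0 and 2 with TMM scaling. The shares of all genes compared were 33.8% and 4.58%, or 14.7% and 14.2% with TMM scaling. PLT1 (AT3G20840) and PLT2 (AT1G51190), root stem cell factors that act beside SHR and SCR, were 2.40-fold [2.04 to 2.84] and 2.46-fold [1.80 to 3.395] lower. LHP1 (AT5G17690), a chromatin repressor that acts with SCR on ground tissue divisions, was 3.08-fold higher [2.36 to 4.06]. SCM (AT1G11130), the receptor kinase of root epidermal patterning that lies downstream of JKD, was 2.62-fold higher [1.89 to 3.68]. MP (AT1G19850), the auxin response factor that starts the embryonic root, had 103.5 and 93.7 RPM. SCZ (AT1G46264), a heat shock factor that specifies ground tissue fate, lay under the filter with 14 wild-type reads and 1 dcl1-5 read, 11.3-fold lower [1.71 to 476]. MP and SCZ were named after their values were seen.

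The cell-cycle partners of RBR1 and CYCD6;1 differed in both directions. Of 17 D-type cyclins, kinases and E2F or DP factors, 9 reached a mean of 5 RPM, and their median log2 ratio was 0.36. Of these 9, 1 was called higher and 1 lower, or 0 and 1 with TMM scaling. The shares of all genes compared were 33.8% and 4.58%, or 14.7% and 14.2% with TMM scaling. CYCD3;2 (AT5G67260), a D-type cyclin of proliferating tissue, was 2.11-fold lower, from 76.8 to 36.3 RPM. CYCD3;1 (AT4G34160), its relative, was 2.44-fold higher [1.48 to 4.12], with an overlapping locus on the same strand that makes its reads uncertain, and it passed the filter through dcl1-5. DPB (AT5G03415), the partner of E2F factors, had 3.74 and 7.75 RPM. CDKB1;1 (AT3G54180), a mitotic kinase, had 58.1 and 83.5 RPM, a log2 ratio of 0.52 that was -0.14 with TMM scaling. E2FA (AT2G36010), which RBR1 binds, lay under the filter with 44 and 6 reads, 5.90-fold lower [2.50 to 16.9], and was named after its value was seen. So were the D-type cyclins CYCD1;1, under the filter with 12 and 2 reads, 4.83-fold lower [1.07 to 44.4], and CYCD5;1, with 19 and 5 reads, 3.06-fold lower [1.10 to 10.5]. E2FC (AT1G47870), also under the filter, went the other way with 13 and 30 reads, 2.87-fold higher [1.45 to 5.99]. It too was named after its value was seen. Of the 17 genes, 13 had more RPM in dcl1-5 and 4 in wild type. Among all genes, 68.6% had more RPM in dcl1-5.

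The HD-ZIP III genes, which miR165 and miR166 restrict inside the ground tissue layer, were all called higher. These were 5 of 5, with a median log2 ratio of 2.85, or 4 of 5 with TMM scaling. Of all genes compared, 33.8% were called higher, or 14.7% with TMM scaling, and the median log2 ratio was 0.63. PHB (AT2G34710) went from 54.4 to 397.7 RPM, PHV (AT1G30490) was 7.74-fold, ATHB-8 (AT4G32880) 9.15-fold and ATHB-15 (AT1G52150) 38.9-fold higher. REV (AT5G60690), the gene that loses its call, had a log2 ratio of 1.17, or 0.54 with TMM. ATHB-8 passed the filter through dcl1-5.

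**Figure D5:**
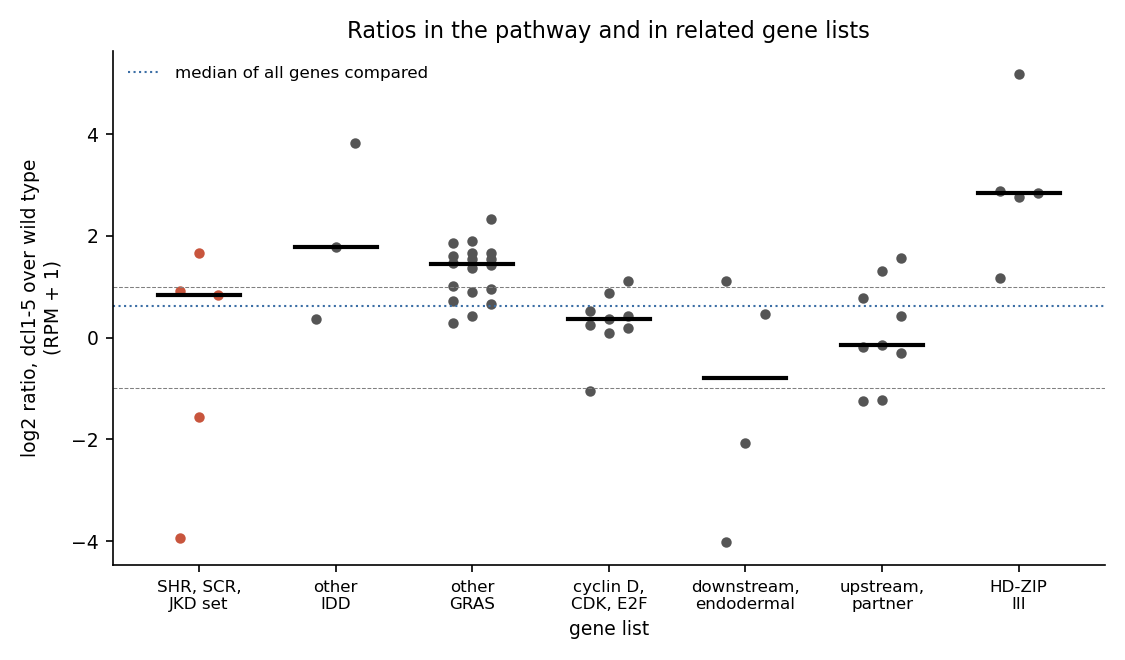
Log2 ratio of dcl1-5 over wild type on the log2(RPM + 1) scale for every gene at a mean of 5 RPM or more in the SHR, SCR and JKD set (red) and in 6 related lists (grey). Black bars are list medians, the dotted line is the median of all genes compared and dashed lines mark 2-fold differences. The set runs from -3.93 for JKD to 1.66 for SCL3.

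The genes whose values in the 2 libraries lay nearest to those of SHR, by Euclidean distance on the log2(RPM + 1) scale, were RAB8 (AT3G53610) at 0.019, OZF1 (AT2G19810) at 0.034 and AT1G08110 at 0.042. Nearest to SCR were AT3G43240 at 0.053, the brassinosteroid synthesis gene DWF4 (AT3G50660) at 0.063 and the gibberellin-inactivating enzyme gene GA2OX2 (AT1G30040) at 0.066. With 2 libraries this likeness says only that the pairs of values are close.

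Embryo markers were present in both libraries. All 7 analysed markers of 8 had reads in each, from WOX8 with 4.28 RPM in wild type to the epidermal gene PDF1 with 4215 RPM. Of these, 6 had more RPM in dcl1-5. Their summed level was 4694 RPM in wild type and 3748 RPM in dcl1-5, and without PDF1 it was 478.5 and 642.5 RPM. All 11 of 11 markers of the seed coat had more RPM in dcl1-5. None was at 0 in either library, and their summed level went from 275.1 to 616.4 RPM. Of all genes in the table, 68.6% had more RPM in dcl1-5. LDOX, the most abundant of the 11 in wild type, had a log2 ratio of 0.21 that was -0.46 with TMM and -0.27 with median-of-ratios scaling, and without it the sum went from 144.3 to 465.0 RPM. Of 8 seed coat markers at a mean of 5 RPM, 5 were called higher, or 3 with TMM. The shares of all genes compared were 33.8% and 14.7%. TT1 and GL2, called under both scalings, were under 5 RPM in wild type and passed the filter through dcl1-5. Of 10 endosperm markers, 8 were analysed, of which 5 were higher in dcl1-5 and 3 in wild type, and their summed level went from 30.1 to 59.8 RPM. Of the 3 endosperm markers at a mean of 5 RPM, 1, FIS2 (AT2G35670), was called higher and 0 lower. FIS2 had 3 and 53 reads, 22.0-fold higher [7.12 to 110], and passed the filter through dcl1-5. AGL62 (AT5G60440), under the filter, went the other way with 9 and 1 reads, a ratio of 0.138 [0.00315 to 0.997]. FIS2 and AGL62 were named after their values were seen. AGL36 was the endosperm marker at 0 in wild type. The part of these tissues in the values of SHR, SCL3 and RBR1 was not tested.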

How the data were processed

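Per the series' design text, the authors mapped reads with Bowtie to TAIR9 with at most 2 mismatches in a seed of 25 nt. They used reads with a unique position and counted those antisense to a gene, since the RNA had been amplified linearly in 2 rounds. No source used here gives Bowtie's version. Unique mapping lowers genes with near-identical copies. The deposited values are RPM per genome-matching read, per the file headers and labels. Per library, 100% of values were whole reads within 0.01 reads, so reads were recovered (90.2% and 88.0% lay in listed genes). Exon lengths, names and overlaps came from RefSeq TAIR10.1, which paired 20509 of 20612 loci. It is not the authors' build, so no coordinates or sequences are printed. A pseudocount of 1 RPM was used. Calculations used Python 3.11.15, scipy 1.17.1, statsmodels 0.14.6 and, for TMM, edgeR 4.0.16, and were tested on simulated data.

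The genes and lists were chosen with earlier results of these data known. Named genes were the set, DCL1, up to 4 genes at 5 RPM or more in each list, taken by size of the log2 ratio, and the 3 nearest to SHR and to SCR. Alternatives were a filter at 20 RPM or none, other pseudocounts (0.1 and 5 RPM), a 4-fold threshold, 3 other scalings, and an exact binomial test on the reads, which compares 2 libraries and not genotypes. It called 7567 of 10240 genes at an adjusted 0.05. Median-of-ratios used genes from 20 RPM.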

Additional observations from a re-analysis of the deposited data

How the results depend on the processing

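SCR and JKD were called lower and SCL3 higher under both other pseudocounts and all 3 other scalings. No log2 ratio of the 8 genes changed sign, but those of BIB and CYCD6;1 could not, as each had 0 reads in 1 library. The scaling moved the background: of all genes 3464 were called higher and 469 lower with the authors' scaling, 1947 and 1077 with median-of-ratios, and 1501 and 1450 with TMM. The median log2 ratio of all genes was 0.63, 0.18 and 0.00, and that of SCL3 was 1.66, 1.19 and 1.01, so its TMM value lies at the threshold. Without a filter 2 genes of the set were called higher, as CYCD6;1 joins with 5 reads against 0, beside 27.7% of all genes. At 4-fold 0 were higher and 1, JKD, lower, beside 7.82% and 0.811% of all genes. At a mean of 20 RPM 0 were lower, since SCR (mean 19.4 RPM) and JKD (12.5 RPM) drop out, and 4.57% of all genes were lower there. The exact binomial test called 3 higher, SHR and RBR1 among them, as it did for 59.6% of all genes. In the 6 related lists 23 of 48 genes were called higher and 5 lower, beside 33.8% and 4.58% of all genes. With TMM these were 11 and 5 of 48, beside 14.7% and 14.2%. At a mean of 20 RPM they were 10 and 3 of 24, beside 25.8% and 4.57%. At 4-fold they were 6 and 2 of 48, beside 7.82% and 0.811%. Without a filter they were 28 and 10 of 80, beside 27.7% and 5.60%. No paired analysis was possible because each genotype has 1 library, and none could be left out. Depth limits MGP, BIB and CYCD6;1, each with 13 reads or fewer in either library.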
